A study of Mus musculus with 4 samples.

Results

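The collagen chain genes are the genes whose symbol is Col, a number, the letter a and a number. They were found by that rule among all genes of the mouse thoracic aorta data, and 43 of 17524 genes met it. By the type of collagen they encode, 11 were fibrillar (types I, II, III, V, XI, XXIV and XXVII), 6 were basement membrane genes (type IV) and 9 were FACIT genes (fibril-associated collagens with interrupted helices). The other classes were beaded filament type VI with 6 genes, the short-chain networks of types VIII and X with 3, the multiplexins XV and XVIII with 2, transmembrane collagens with 4 and a rest of 2, types VII and XXVIII.

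Single cells were captured with the 10x Genomics droplet method, which counts each transcript once, by a unique molecular identifier (UMI), at its 3′ end. Since a UMI stands for a transcript and not for a stretch of it, levels of different genes can be set side by side without a length correction. The 4 libraries were wild type with normal diet and saline (WT saline), wild type with a high fat diet for 5 weeks and infusion of the pressor peptide angiotensin II for 7 days (WT AngII), and the same 2 treatments in Sting-KO mice (KO saline and KO AngII). Sting-KO mice lack the DNA-sensing adaptor STING in the whole body. Diet and infusion cannot be told apart in any comparison, and each library came from 3 pooled mice. Age and sex were not given in the labels.

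The libraries held 9261 and 12053 cells with saline (WT, KO) and 8495 and 8507 cells with AngII, with between 60064038 and 94698727 UMIs. The median cell had 5888 and 6071 UMIs in the saline libraries and 9938 and 9294 in the AngII libraries, so depth moved with treatment. Between 92 and 148 cell barcodes were shared by any pair of libraries. UMIs of Tmem173, the gene of STING, were 1.75 and 1.33 CPM (UMIs per 1000000 UMIs, here of the library) in WT and KO saline and 7.03 and 6.10 in WT and KO AngII. The KO libraries were thus not without Tmem173 UMIs. Whether the 3′ tag lies outside the altered part of the gene was not examined, so the genotypes rest on the labels. With 1 library per group there is no replicate error and no test. Intervals are 95% and cover counting error only.

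Collagen UMIs were summed in 4 gates, which are limits on a few transcripts in a cell. A smooth muscle cell had at least 3 UMIs of Myh11, the smooth muscle myosin. A fibroblast had at least 10 UMIs of the proteoglycans Dcn and Lum together and at most 1 of Myh11. A phagocyte had at least 10 UMIs of Lyz2, C1qa and C1qb, with Dcn and Lum under 10. An endothelial cell had at least 2 UMIs of the junction genes Pecam1 and Cdh5. Where 4 values follow each other, the WT pair comes before the KO pair, and within each pair saline comes before AngII. The smooth muscle gate held 7563, 5906, 10372 and 5668 cells and the fibroblast gate 1021, 1698, 506 and 1880. The 7 smooth muscle markers that no gate uses summed to between 34983 and 44132 CPM in the smooth muscle gate, and the 7 fibroblast markers to between 6662 and 21080 in the fibroblast gate. The endothelial gate went against its label: 1048 of its 1267 cells in WT saline also had 3 or more Myh11 UMIs, and only 133, 26, 63 and 45 of its cells passed no other gate.

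As background, a collagen is a triple helix of 3 chains, each from its own gene or from copies of the same gene. Fibrillar collagens, led by types I and III, form the tensile fibres of the outer and middle layers of an artery. Type IV collagen is the sheet-forming collagen of the basement membrane that surrounds each smooth muscle cell and underlies the endothelium. FACIT collagens such as types XII and XIV sit on the surface of fibrils, type VI forms beaded microfilaments next to cells, and types XV and XVIII lie where basement membrane meets fibrils.

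Collagen took a larger part of the transcripts in both AngII libraries than in the saline libraries, in both main gates. In the smooth muscle gate collagen made up 0.475%, 1.14%, 0.458% and 1.01% of UMIs. In the fibroblast gate the shares were 1.22%, 4.16%, 0.865% and 3.72%. The AngII libraries stood above both saline libraries in each gate, by 2.40-fold (WT) and 2.21-fold (KO) in smooth muscle cells and by 3.41-fold and 4.30-fold in fibroblasts. The fibroblast gate also held a larger part of all collagen transcripts with AngII: 16.1% and 5.93% of the collagen UMIs of the saline libraries (WT, KO), and 48.9% and 57.1% of those of the AngII libraries. The gate held more cells with AngII, and its cells a larger collagen share.

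**Figure D1:**
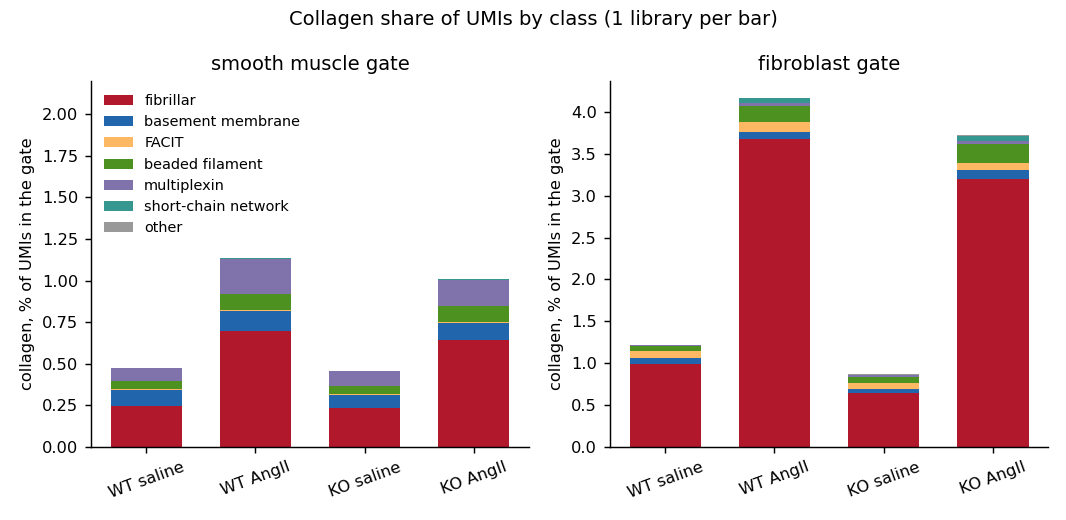
Collagen UMIs as a percent of all UMIs of the smooth muscle gate (left) and the fibroblast gate (right), stacked by collagen class, with 1 bar for each library. The fibrillar class made up 51.2% to 63.3% of collagen UMIs in smooth muscle cells and 74.1% to 88.4% in fibroblasts, and the AngII bars are the higher ones in both gates.

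A gene was called when its CPM, from here on taken over the UMIs of the gate, differed at least 2-fold between 2 libraries that had at least 50 UMIs of it together. In the smooth muscle gate, 14 of the 29 collagen genes with enough UMIs were higher in WT AngII than in WT saline, where 7.07% of all genes were, and 1 was lower, against 5.44% of all genes. In KO the counts were 13 higher and 1 lower of 29, against 6.59% and 6.38% of all genes. In the fibroblast gate, 16 of 27 were higher and 2 lower in WT (7.56% and 8.16% of all genes), and 16 of 27 were higher and 5 lower in KO (7.67% and 14.4%). The median log2 ratio of the collagen genes was 0.98 (WT) and 0.75 (KO) in smooth muscle cells, beside -0.11 and -0.17 for all genes, and 1.501 and 1.57 in fibroblasts, beside -0.12 and -0.20. The count of 5 lower genes in KO fibroblasts is near its background. In KO smooth muscle cells the 13 higher genes became 5 of 23 when cells were thinned to 3000 UMIs and gated again, and 10 of 25 with gates set before thinning. The 6.59% of all genes belongs to the counts without thinning, so neither count can be set against it. The log2 ratio of all collagen UMIs went from 1.15 to 0.69 and 0.95. The genotype comparisons given further on use the same 4 libraries, so they are not independent of these.

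**Figure D2:**
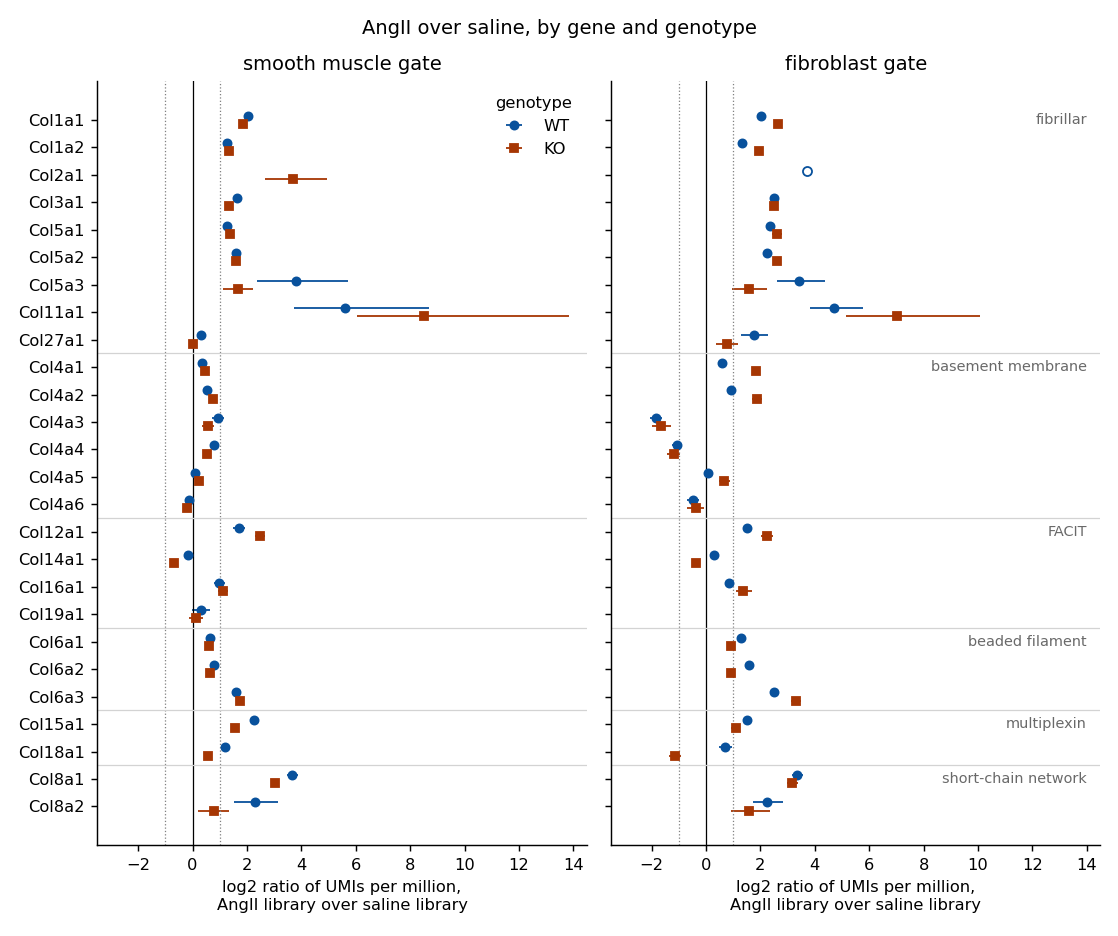
Log2 ratio of CPM, AngII library over saline library, for the 26 collagen genes described one by one, in the smooth muscle gate (left) and the fibroblast gate (right). Circles are WT and squares KO, bars are 95% counting intervals, dotted lines mark 2-fold, an open symbol is a lower bound, and a gene without a symbol had under 50 UMIs. Fibrillar genes lie mostly to the right of 2-fold in both gates. Type IV genes lie between the 2-fold lines in smooth muscle cells, mostly to the right of 0, but spread to both sides in fibroblasts.

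Most fibrillar genes were higher with AngII and none was lower by 2-fold. In smooth muscle cells 7 of 9 (WT) and 8 of 10 (KO) with enough UMIs were higher, and in fibroblasts 9 of 9 and 7 of 8. The shares of all genes are those given above for each comparison. In KO smooth muscle cells Col1a2, Col3a1 and Col5a1 came under 2-fold when cells were thinned to 3000 UMIs and gated again. Col5a3 did so there with equal weight for every cell. The WT fibroblast count includes Col2a1, whose ratio is a bound over 0 UMIs. The log2 ratio of all fibrillar UMIs was 1.52 and 1.44 in smooth muscle cells and 1.89 and 2.32 in fibroblasts. Type I collagen, the main fibre of the vessel wall, has the chains Col1a1 (chr11:94936224-94953042 in GRCm38) and Col1a2 (chr6:4504814-4541544). In fibroblasts Col1a1 stood at 2026, 8169, 1268 and 7989 CPM, which gives log2 ratios of 2.01 in WT and 2.66 in KO. Col1a2 stood at 4887, 12087, 2826 and 10852 CPM, with log2 ratios of 1.31 and 1.94. Both saline libraries lay below both AngII libraries for each chain, and the AngII libraries differed little by genotype (log2 ratio KO over WT of -0.03 for Col1a1 and -0.16 for Col1a2). The larger ratio in KO came with a lower starting level summed over cells. The saline libraries differed by a log2 ratio of -0.68 for Col1a1 and -0.79 for Col1a2. Their median fibroblasts were closer, with fibrillar collagen at 0.540% (WT) and 0.530% (KO) of UMIs, and 90th percentiles of 3.09% and 1.24%.

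The same chains in smooth muscle cells gave 304, 1258, 356 and 1292 CPM for Col1a1 and 1194, 2896, 1024 and 2574 CPM for Col1a2. The log2 ratios with AngII were 2.05 and 1.86 for Col1a1 and 1.28 and 1.33 for Col1a2. When cells were thinned to 3000 UMIs and gated again, the KO ratios were 1.03 and 0.70, the latter under 2-fold, and the log2 ratio KO AngII over WT AngII of all collagen UMIs went from -0.17 to -0.54. In cells that passed no other gate, the level of Col1a2 in smooth muscle cells was 22.3%, 23.6%, 34.0% and 23.7% of its level in fibroblasts. Of the fibroblast markers that the gate does not use, Dpt was at 1.20%, 2.42%, 1.91% and 3.74%, Serpinf1 at 1.32%, 2.95%, 3.24% and 4.31%, and Pdgfra at 4.32%, 6.04%, 5.71% and 7.68%. In all 4 libraries Mfap5 and Gsn were higher than these, Mfap5 at 17.7%, 13.2%, 17.9% and 14.3%, and Gsn at 8.39%, 31.5%, 6.95% and 49.4%. The part of fibroblast transcripts in the collagen of this gate was not tested.

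Type III collagen, a homotrimer that mixes with type I in elastic tissue, is made from Col3a1 (chr1:45311538-45349706). Col3a1 stood at 2640, 14757, 2011 and 11307 CPM in fibroblasts and at 687, 2127, 775 and 1977 CPM in smooth muscle cells. Its log2 ratios with AngII were 2.48 (WT) and 2.49 (KO) in fibroblasts and 1.63 and 1.35 in smooth muscle cells. With AngII, Col3a1 overtook Col1a2 in fibroblasts: there were 0.540 and 0.712 UMIs of Col3a1 per UMI of Col1a2 in the saline libraries, and 1.22 and 1.04 in the AngII libraries.

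Type V collagen sets fibril diameter from within type I fibrils. Col5a1 (chr2:27886425-28039514) was at 117, 592, 95.4 and 582 CPM in fibroblasts and Col5a2 at 227, 1067, 175 and 1080 CPM. The log2 ratios with AngII were 2.34 and 2.61 for Col5a1 and 2.24 and 2.63 for Col5a2, larger than those of Col1a2 in the same cells. In smooth muscle cells they were 1.25 and 1.38 for Col5a1 and 1.61 in both genotypes for Col5a2. The minor chain Col5a3 was rare in saline libraries, with 4 and 40 UMIs in the smooth muscle gate, and reached 1.05 and 1.80 CPM there with AngII. In fibroblasts it stood at 2.92, 31.1, 9.29 and 27.6 CPM, so the AngII libraries were alike and the ratio differed (3.42 in WT, 1.57 in KO) through the saline libraries, which rest on 12 and 23 UMIs.

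Col11a1 (chr3:114030540-114220718) encodes a fibril-nucleating chain best known from cartilage, and it was nearly without UMIs in the saline libraries. In fibroblasts it was at 2.43, 63.4, 0.808 and 104 CPM, from 10, 1134, 2 and 2562 UMIs. The log2 ratios were 4.70 [3.82, 5.77] in WT and 7.01 [5.15, 10.05] in KO, with intervals as wide as the few saline UMIs make them. Transcripts were spread over many cells: in WT AngII and KO AngII, 328 and 774 fibroblasts had a Col11a1 UMI, beside 1 and 8 phagocytes, at median depths of 9150 and 11778.5 UMIs in fibroblasts and 7905 and 7589 in phagocytes. In the smooth muscle gate Col11a1 had 2, 120, 1 and 314 UMIs, at most 5.24 CPM, and the log2 ratio in KO went from 8.53 to 4.56 when cells with 10 or more Dcn and Lum UMIs were left out.

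The remaining fibrillar genes were low. Col27a1, a long-chain fibrillar collagen, was at 12.6, 15.6, 16.3 and 16.5 CPM in smooth muscle cells, where no comparison reached 2-fold. In fibroblasts it was at 9.23, 31.5, 21.8 and 36.9 CPM, and the 38 UMIs of WT saline set both its ratio with AngII in WT (1.77) and the difference between the saline libraries (1.24, against 0.79 under stricter gates). Col2a1, the main cartilage collagen, had 0, 191, 8 and 120 UMIs over all cells. With AngII these lay in 23 (WT) and 15 (KO) cells, and a single cell held 53 and 74 of them. In WT AngII the fibroblast gate held 171 Col2a1 UMIs against 0 in WT saline, at least 13.1-fold higher over a floor of 3 UMIs (a log2 bound of 3.71, and of 1.92 under stricter gates). Col11a2 and Col24a1 stayed under 2 CPM in every library of both gates.

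Promoter sequence was taken from RefSeq in build GRCm38.p6, which matched 35 of the 43 genes with 38 start sites. The 150 bases before the start are shown for the fibrillar genes Col3a1 (chr1:45311388-45311537, plus strand), Col5a1 (chr2:27886275-27886424, plus) and Col11a1 (chr3:114030390-114030539, plus) and for the network gene Col8a1 (chr16:57754738-57754887, minus), as examples of the genes that passed the 2-fold limit with AngII in each main gate and genotype. When cells were thinned to 3000 UMIs and gated again, Col3a1 and Col5a1 came under it in KO smooth muscle cells, at log2 ratios of 0.88 and 0.84. Each reads 5′ to 3′ on the strand of its gene. Capitals mark, on either strand, the TATA box (TATAAA), the CCAAT box (CCAAT), the GC box (GGGCGG) and the CTC element (CCCCTCCCC), motifs chosen after the sequences had been seen.
Col3a1: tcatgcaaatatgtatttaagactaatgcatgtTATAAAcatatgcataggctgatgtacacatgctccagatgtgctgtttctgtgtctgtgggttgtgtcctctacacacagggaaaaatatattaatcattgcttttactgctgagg
Col5a1: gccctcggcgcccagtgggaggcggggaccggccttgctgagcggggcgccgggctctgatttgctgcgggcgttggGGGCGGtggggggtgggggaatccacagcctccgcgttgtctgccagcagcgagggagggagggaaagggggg
Col11a1: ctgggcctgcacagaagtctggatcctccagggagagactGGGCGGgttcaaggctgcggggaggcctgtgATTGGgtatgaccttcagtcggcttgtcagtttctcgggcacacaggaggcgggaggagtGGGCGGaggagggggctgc
Col8a1: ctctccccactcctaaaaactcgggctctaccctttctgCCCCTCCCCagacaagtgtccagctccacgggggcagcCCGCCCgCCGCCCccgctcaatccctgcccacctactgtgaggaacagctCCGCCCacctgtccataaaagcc
The pieces differed in these motifs: Col3a1 held a TATA box, Col5a1 a single GC box, Col11a1 GC boxes and a CCAAT box, and Col8a1 GC boxes and a CTC element. In the 250 bases before the start, the GC box was found in 22 of the 38 collagen windows and in 32.7% of all 32851 windows of the table. The CCAAT box was found in 13 (33.8% of all windows), the TATA box in 5 (12.4%) and the CTC element in 5 (5.75%). A match is a description of letters and not of a bound site.

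The ratio between the chains of a collagen was not fixed. Most type I collagen holds more Col1a1 than Col1a2 chains, and Col1a1 had fewer UMIs than Col1a2 in every library of both gates. Smooth muscle cells had 0.255, 0.434, 0.347 and 0.502 UMIs of Col1a1 per UMI of Col1a2. In fibroblasts the ratio was 0.415, 0.676, 0.449 and 0.736. Both AngII libraries stood above both saline libraries in each gate, and the counting intervals of AngII and saline libraries did not overlap. Capture at the 3′ end can differ between genes, so the level of such a ratio is less firm than its change between libraries. The ratio of Col5a1 to Col5a2 in fibroblasts stayed between 0.517 and 0.555, with overlapping intervals, while both chains were more than 4-fold higher with AngII. That ratio was lower with AngII in smooth muscle cells, at 0.419, 0.326, 0.496 and 0.421, and the intervals of AngII and saline did not overlap within a genotype.

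**Figure D3:**
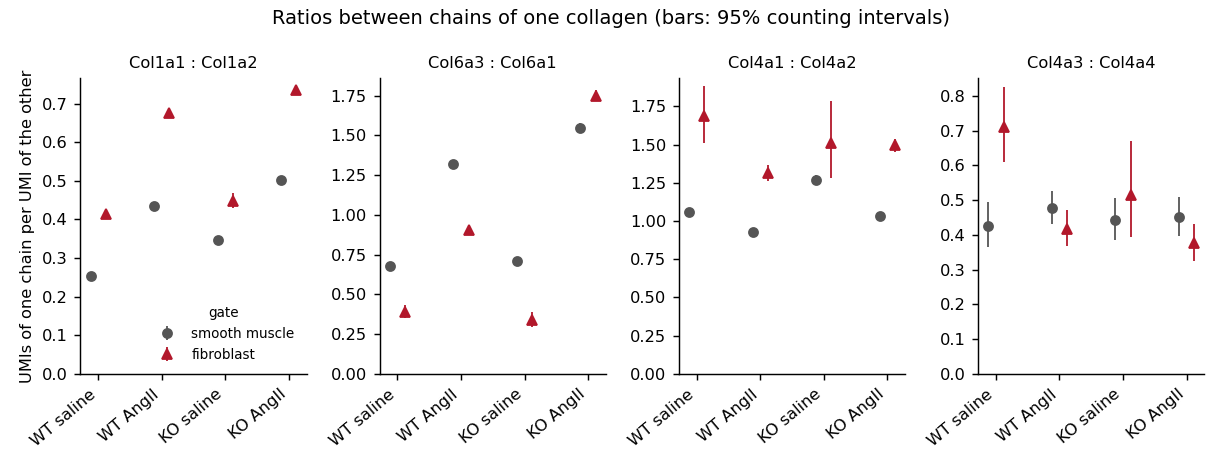
UMIs of a chain per UMI of its partner chain in each library, for Col1a1 to Col1a2, Col6a3 to Col6a1, Col4a1 to Col4a2 and Col4a3 to Col4a4, with circles for the smooth muscle gate, triangles for the fibroblast gate and bars for 95% counting intervals. The ratios of the type I and type VI pairs are higher in both AngII libraries, and that of Col6a3 to Col6a1 in fibroblasts goes from 0.389 and 0.336 with saline to 0.903 and 1.75 with AngII.

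The 6 type IV genes differed from the fibrillar class. In smooth muscle cells none of the 6 was called in any of the 4 comparisons, and their median log2 ratio with AngII was 0.44 in WT and 0.49 in KO. Col4a1 and Col4a2, the chains of the common type IV network, were at 335, 423, 281 and 384 CPM and at 315, 456, 221 and 371 CPM. Both were somewhat higher with AngII, Col4a1 by a log2 ratio of 0.34 (WT) and 0.45 (KO) and Col4a2 by 0.53 and 0.75. Type IV made up 20.5% and 16.2% of the collagen UMIs of smooth muscle cells with saline and 10.7% and 10.0% with AngII (WT, KO).

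These genes lie in head-to-head pairs. The starts of Col4a1 (chr8:11198423-11312826, minus strand) and Col4a2 (chr8:11312805-11449287, plus strand) overlap by 22 bases, and that shared stretch, chr8:11312805-11312826 on the plus strand, lies in the first exon of both genes. It is shown because 1 short stretch serves both starts, with GGGCGG in capitals.
Col4a1 and Col4a2: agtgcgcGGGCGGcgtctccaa
The starts of Col4a3 and Col4a4 are 72 bases apart on chromosome 1 and those of Col4a5 and Col4a6 are 1309 bases apart on the X chromosome. The partners of a pair had unequal levels. Smooth muscle cells had 1.06, 0.929, 1.27 and 1.04 UMIs of Col4a1 per UMI of Col4a2, and 0.425, 0.477, 0.442 and 0.450 of Col4a3 per UMI of Col4a4. The counting intervals of the last ratio overlapped among the 4 libraries. In fibroblasts Col4a3 to Col4a4 was 0.710, 0.416, 0.515 and 0.376, and the WT intervals did not overlap.

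In fibroblasts the pairs differed from each other in direction. Col4a1 was at 209, 311, 147 and 529 CPM and Col4a2 at 124, 237, 97.4 and 354 CPM. The log2 ratios with AngII were 0.58 and 0.94 in WT, under 2-fold, and 1.85 and 1.86 in KO, and KO AngII stood above WT AngII by 0.76 and 0.58. Col4a3 and Col4a4, whose chains form the network of filtering and lung membranes together with Col4a5, were lower with AngII: Col4a3 stood at 72.4, 20.1, 35.2 and 11.2 CPM and Col4a4 at 102, 48.2, 68.3 and 29.8 CPM. Both saline libraries lay above both AngII libraries for each gene, with log2 ratios of -1.85 and -1.65 for Col4a3 and -1.08 and -1.20 for Col4a4. In smooth muscle cells the same genes went the other way, at 4.63, 8.93, 4.19 and 6.21 CPM for Col4a3, so the level of Col4a3 in fibroblasts was higher than in smooth muscle cells in all 4 libraries. The call of Col4a4 was not firm in either genotype. Its ratio was -0.67 (WT) and -0.47 (KO) when cells were thinned to 3000 UMIs and gated again, -0.80 and -0.78 with equal weight for every cell, and -0.97 and -0.99 with TMM scaling. Col4a3 was at -0.71 in KO with thinning and gating again, and at -1.22 in WT with gates set before thinning.

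Among the type IV genes, Col4a5 and Col4a6 had the log2 ratios nearest 0 with AngII in smooth muscle cells, 0.08 and -0.12 in WT and 0.25 and -0.22 in KO. Col4a5 was at 214, 227, 152 and 180 CPM, and Col4a6 at 91.4, 84.2, 71.0 and 61.0 CPM. The KO libraries stood below the WT libraries with the same treatment for all 6 type IV genes in smooth muscle cells, with log2 ratios between -0.51 and -0.14 with saline and between -0.52 and -0.14 with AngII. None of these differences was 2-fold, and with 1 library per group nothing shows how far 2 WT libraries would differ.

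**Figure D4:**
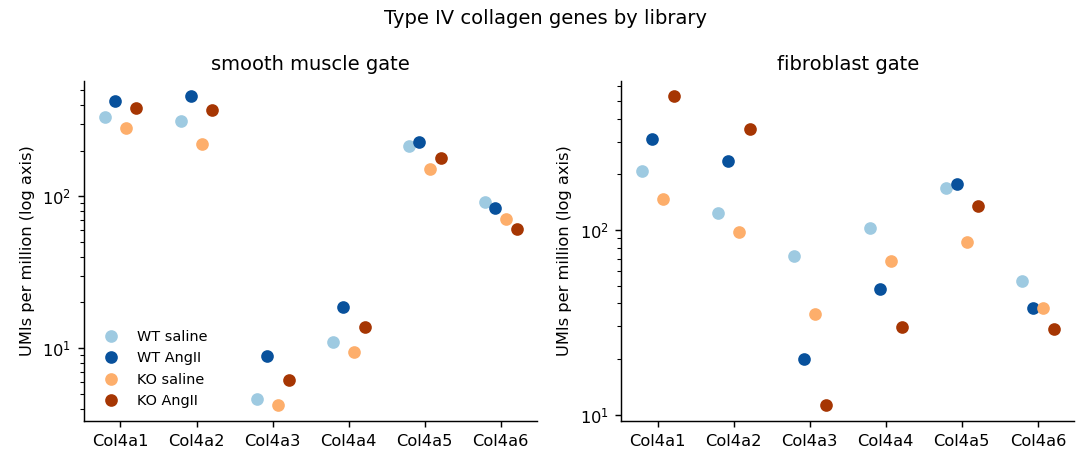
CPM of the 6 type IV genes on a log axis, with 1 point per library, in the smooth muscle gate (left) and the fibroblast gate (right). In smooth muscle cells each KO point lies below the WT point with the same treatment, and in fibroblasts Col4a3 and Col4a4 are lower in both AngII libraries while Col4a1 and Col4a2 are highest in KO AngII.

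Among the FACIT genes, Col12a1 and Col14a1, which encode related proteins on the surface of type I fibrils, differed in direction in smooth muscle cells and in KO fibroblasts but not in WT fibroblasts, where both were higher with AngII. The log2 ratio of all FACIT UMIs stayed small, at 0.16 and 0.01 in smooth muscle cells and 0.55 and 0.30 in fibroblasts. Col12a1 (chr9:79598991-79718831) was at 82.4, 233, 63.4 and 300.1 CPM in fibroblasts and at 3.93, 12.8, 3.92 and 22.0 CPM in smooth muscle cells. In fibroblasts it was 2.83-fold higher with AngII in WT, with a log2 ratio of 2.24 in KO. The log2 ratios were 1.71 and 2.49 in smooth muscle cells, where they were 1.20 and 1.71 without cells that had 10 or more Dcn and Lum UMIs. Col14a1 (chr15:55307750-55520803), the most abundant FACIT gene, was at 606, 751, 616 and 478 CPM in fibroblasts. It was a little higher with AngII in WT (log2 ratio 0.31) and a little lower in KO (-0.37), and in smooth muscle cells, at 58.2, 52.1, 64.7 and 40.6 CPM, it was lower in both (-0.16 and -0.67).

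Col16a1, a FACIT of many connective tissues, stood at 70.5, 128, 40.4 and 105 CPM in fibroblasts, with log2 ratios of 0.86 and 1.38. Col19a1 was the only FACIT among those described that was nearly without UMIs in fibroblasts: it had 0, 0, 0 and 2 there and 123, 187, 277 and 258 in smooth muscle cells. Its levels in smooth muscle cells, 2.32, 2.89, 3.93 and 4.31 CPM, differed by genotype (log2 ratio KO over WT of 0.76 [0.45, 1.08] with saline and 0.58 [0.30, 0.85] with AngII) more than by treatment (0.32 and 0.13). The other 5 FACIT genes, Col9a1, Col9a2, Col9a3, Col20a1 and Col22a1, were under 2 CPM in every library of both gates.

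Type VI collagen, made of Col6a1, Col6a2 and another chain, changed unevenly. In fibroblasts Col6a1 was at 290, 699.8, 322 and 609.7 CPM and Col6a2 at 206, 610.3, 289 and 549 CPM. Col6a3 (chr1:90765923-90843971), the long chain that completes the trimer and the source of the peptide endotrophin, was at 113, 632, 108 and 1065 CPM, with log2 ratios of 2.49 and 3.30 against 1.27 and 0.92 for Col6a1 and 1.57 and 0.93 for Col6a2. There were 0.389, 0.903, 0.336 and 1.75 UMIs of Col6a3 per UMI of Col6a1 in fibroblasts and 0.676, 1.32, 0.708 and 1.55 in smooth muscle cells. Col6a6, an alternative to Col6a3, moved the other way where it was called: it stood at 1.45, 0.526, 2.75 and 0.701 CPM in smooth muscle cells, and at 10.4, 9.16, 11.3 and 2.80 CPM in fibroblasts. Col6a4 and Col6a5 had at most 20 UMIs in any library of either gate.

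Col8a1 (chr16:57624258-57754737), the chain of a hexagonal network that migrating vascular cells lay down, had log2 ratios of 3.03 or more with AngII in either main gate and genotype. It stood at 53.7, 547, 73.5 and 664 CPM in fibroblasts and at 4.70, 60.1, 7.40 and 60.6 CPM in smooth muscle cells. The log2 ratios with AngII were 3.35 and 3.17 in fibroblasts and 3.68 and 3.03 in smooth muscle cells, and both AngII libraries lay far above both saline libraries in each gate. Its partner Col8a2 was lower throughout, at 7.53, 35.8, 7.27 and 21.8 CPM in fibroblasts, and there were 0.140, 0.0655, 0.0989 and 0.0329 UMIs of Col8a2 per UMI of Col8a1.

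The multiplexin Col18a1 was higher in smooth muscle cells than in fibroblasts in all 4 libraries. Col18a1 (chr10:77052178-77166548), whose C-terminal fragment is endostatin, was at 673, 1538, 730.3 and 1094 CPM in smooth muscle cells and at 38.9, 63.3, 91.7 and 41.8 CPM in fibroblasts. Its log2 ratio with AngII in smooth muscle cells was 1.19 [1.18, 1.21] in WT and 0.58 [0.57, 0.60] in KO. Col15a1 (chr4:47208161-47313167) followed the same order, at 118, 573, 164 and 480 CPM in smooth muscle cells, with log2 ratios of 2.28 and 1.55. In fibroblasts Col15a1 was at 93.3, 264, 136 and 288 CPM, 2.83-fold higher with AngII in WT and at a log2 ratio of 1.09 in KO. The 7 smooth muscle markers summed to 1690, 1290, 5510 and 2281 CPM in the fibroblast gate. They and Col18a1 were both highest in KO saline, and the order of the other libraries differed. When only fibroblasts with under 1% of Acta2 and Tagln UMIs were kept, the log2 ratio KO saline over WT saline went from 1.24 to 0.44 and that of KO AngII over KO saline from -1.14 to -0.34.

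Few collagen genes differed 2-fold between the genotypes. With saline, Col8a2 was the 1 higher gene of 27 in smooth muscle cells, where 2.34% of all genes were higher and 2.19% lower. With AngII, Col2a1 and Col11a1 were higher and Col10a1 lower among 30 (2.15% and 1.43% of all genes). Col2a1 rests on few cells in both gates: 8 (WT) and 4 (KO) smooth muscle cells and 12 and 10 fibroblasts had a UMI of it with AngII. In fibroblasts with saline, Col18a1 and Col27a1 were higher and Col4a3 lower among 22 (3.09% of all genes in each direction), and with AngII Col7a1, the anchoring fibril gene, was higher and Col2a1 and Col6a6 were lower among 30 (1.98% and 5.71%). The log2 ratio of Col2a1 there was -2.93, and -1.24 under stricter gates. No comparison of the genotypes called more than 3 collagen genes. Below 2-fold, the collagen genes of saline fibroblasts, summed over cells, leaned to lower levels in KO. Their median log2 ratio was -0.36, beside 0.02 for all genes, and the ratio for all collagen UMIs was -0.50. The other genes of both gates, Col7a1, Col10a1, Col13a1, Col17a1, Col23a1, Col25a1 and Col28a1, were under 7 CPM in every library.

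The sums hide a difference in how collagen was spread over cells. Cells were thinned at random to 3000 UMIs so that depth was equal, which left out 227, 0, 1190 and 0 smooth muscle cells that had fewer. The median smooth muscle cell then had collagen at 0.433%, 0.967%, 0.433% and 0.667% of its UMIs, and at 0.435%, 0.969%, 0.421% and 0.685% without thinning. In WT AngII, 74.8% of the smooth muscle cells lay above 0.7%, the 90th percentile of WT saline, and 5.49% at or below the median of WT saline. In KO AngII, 47.1% lay above that percentile and 32.7% at or below that median. The KO AngII distribution thus reached as high as that of WT AngII, with 90th percentiles of 1.63% and 1.73%, but it had a peak at the level of the saline libraries that WT AngII lacked. Whether this holds in other mice of either genotype cannot be known from 1 library each.

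**Figure D5:**
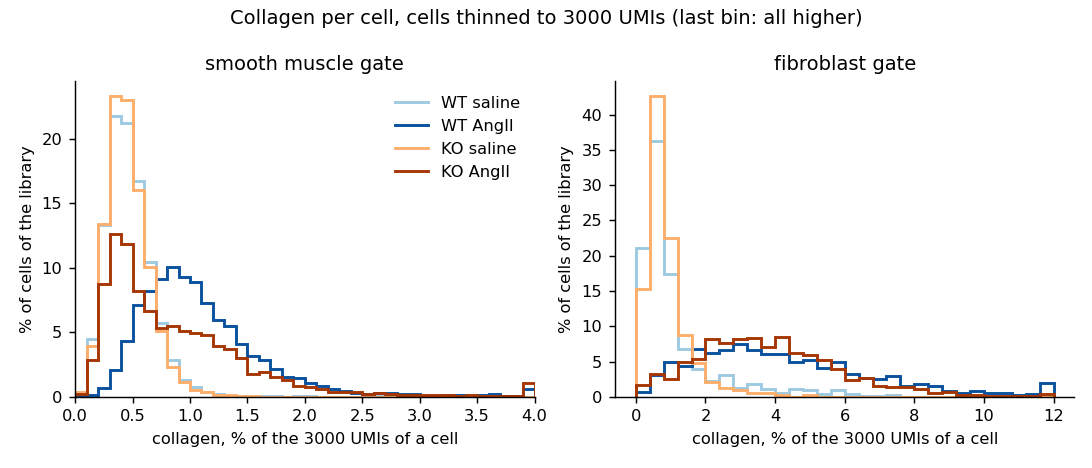
Percent of cells in each library by the share of collagen among the 3000 UMIs kept per cell, in the smooth muscle gate (left) and the fibroblast gate (right). In smooth muscle cells WT AngII forms a single broad peak around its median of 0.967%, whereas KO AngII has a peak at the place of the saline libraries and a long shoulder to the right.

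The 25% of KO AngII smooth muscle cells with the least collagen were compared with the 25% with the most, a split made after the data were seen. Those 1417 cells at the low end had 0.297% collagen, near the 0.263% and 0.265% of the low ends of WT and KO saline and below the 0.574% of that of WT AngII. The cells of the low end had 5868 UMIs at the median against 12749 at the high end, 1542 against 800.0 CPM of Myh11, and 1569 against 526 CPM of Rgs5, a pericyte and smooth muscle gene. In WT AngII the ends differed less in depth, with 8971 and 11591 UMIs, and Rgs5 was at 376 and 190 CPM. The part of depth and of Rgs5-rich cells in the low peak was not tested.

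Fibroblasts shifted as a whole with AngII in both genotypes. The median fibroblast had 0.667%, 3.80%, 0.700% and 3.57% collagen after thinning, which left out 354, 0, 173 and 0 cells, and 0.793%, 3.84%, 0.737% and 3.62% before. At or below the WT saline median lay 2.89% of fibroblasts in WT AngII and 4.04% in KO AngII. The saline libraries differed at their upper end: the 90th percentile was 3.40% in WT and 1.63% in KO without thinning, and the top 10% of cells held 37.2% and 33.1% of the collagen UMIs. In every library the fibroblasts with the least collagen had more Pi16, a marker of adventitial fibroblasts, than those with the most, at 7293 against 1977 CPM in WT saline and 2197 against 662 CPM in KO AngII. Markers of fibroblasts that the gate did not use summed to 19942, 9544, 21080 and 6662 CPM, so their sum was lower with AngII while collagen was higher. The markers did not all move alike. In fibroblasts that passed no other gate, Gsn, Dpt, Pdgfra and Serpinf1 were lower with AngII in both genotypes, and Mfap5 was higher. Gsn stood at 7034, 1025, 9316 and 923 CPM and Mfap5 at 3262, 3781, 2418 and 2938 CPM. The part of these markers in the result was not tested.

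Collagen in phagocytes was set beside the level that the shares of Dcn and Acta2 in these cells stand for, taken as a fibroblast and a smooth muscle part. In cells that passed the phagocyte gate alone, Col1a2 was at 80.1, 144, 103 and 169 CPM. The levels of Dcn and Acta2 in the same cells stood for 52.8, 121, 98.6 and 166 CPM of Col1a2, so the measured level was 1.02 to 1.52 times that. For Col3a1 it was 1.01 to 2.29 times. Col14a1 and Col27a1 lay further above it in the AngII libraries: Col14a1 was at 36.4 and 31.5 CPM, 7.53 and 6.24 times the level from both shares, and Col27a1 at 4.11 and 8.004 CPM, 8.62 and 10.1 times it, from 21 and 30 UMIs. Dcn is limited by the phagocyte gate and required, with Lum, by the fibroblast gate. The gates thus partly set the level from both shares, so these ratios do not show how much collagen phagocytes made. This comparison was made after the data were seen.

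In the few endothelial cells that passed no other gate, the 7 endothelial markers that the gate did not use summed to between 2374 and 3282 CPM, next to between 2941 and 6212 CPM of smooth muscle markers. Col4a1 and Col4a2, the collagens of the endothelial basement membrane, were at 222, 311, 200.2 and 685 CPM and at 177, 201, 159 and 587 CPM. This was 3.44 to 12.5 times the level that Dcn and Acta2 stood for. Passing no other gate keeps Myh11 low and also limits Dcn, so that level is partly set by the gates. Of the level in smooth muscle cells that passed no other gate, Col4a1 was at 66.5%, 73.1%, 71.3% and 177%. Col4a2 was at 56.6%, 43.9%, 71.8% and 157%. The KO AngII values, the largest, rest on 313 and 268 UMIs in 45 cells. Col23a1, a transmembrane collagen, was at 32.2, 13.7, 41.3 and 32.8 CPM there, from 20, 3, 13 and 15 UMIs, and under 7 CPM in the smooth muscle and fibroblast gates.

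Of 33 genes that make and cross-link collagen, 11 of the 30 with enough UMIs were higher and 0 lower with AngII in WT smooth muscle cells and 9 of 30 were higher and 0 lower in KO. In fibroblasts 17 of 29 were higher and 1 lower in WT, and 18 of 30 higher and 1 lower in KO. The background shares are those given above for each comparison. P4ha3, a prolyl hydroxylase subunit that stabilises the triple helix, was at 1.46, 37.4, 4.44 and 43.5 CPM in fibroblasts. Lox, the lysyl oxidase that cross-links collagen and elastin, was at 201, 764, 101 and 1152 CPM, with log2 ratios of 1.92 and 3.51. Serpinh1, the collagen chaperone of the endoplasmic reticulum, was at 553, 2891, 1517 and 3834 CPM, and Plod2, a lysyl hydroxylase, at 58.3, 222, 57.0 and 329.7 CPM. The lower gene in both genotypes was Pcolce2, an enhancer of procollagen cleavage, at 947, 266, 817 and 209 CPM.

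Collagen receptors and fibril proteoglycans were called in smaller numbers, and whether they differ from the genes above was not tested. Of 9 receptor genes, 2 of 8 were higher with AngII in WT smooth muscle cells, the integrin Itga11 and Lair1 (7.07% of all genes), and in KO 1 of 7, Itga11 (6.59%). The phagocyte markers in the smooth muscle gate summed to 44.5, 98.8, 11.5 and 78.4 CPM, and their part in the Lair1 result was not tested. In fibroblasts 0 of 7 were higher in either genotype (7.56% of all genes in WT and 7.67% in KO). The 1 of 7 that was lower in KO (14.4% of all genes) was Ddr2, a receptor kinase for fibrillar collagen. It was at 205, 110, 217 and 70.8 CPM (log2 ratio -0.90 in WT and -1.61 in KO). Of 7 proteoglycan genes, 2 were higher with AngII in WT smooth muscle cells, Lum and Bgn, and Ogn was lower (7.07% and 5.44% of all genes). In KO 0 were higher and 2 lower, Ogn and Prelp (6.59% and 6.38%). Of the same 7 genes, 0 were higher or lower by 2-fold with AngII in WT fibroblasts (7.56% and 8.16%). In KO fibroblasts 2 were lower (14.4% of all genes). Ogn was at 869 CPM with saline against 202 CPM with AngII. Dcn, which the gate itself uses, was at 11071 CPM with saline against 3300 CPM with AngII.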

How the data were processed

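The authors deposited UMI counts per gene and cell for 4 libraries of mouse thoracic aorta, made with the Chromium Single-Cell 3′ v3 kit from viable sorted cells of 3 pooled mice each, per the labels' protocols. The submitters' processing notes name Cell Ranger and mm10. Its version, the annotation and the filters on cells: not given in the sources used here. No cell was removed and no doublet caller was run, so doublets remain.

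Counts were summed per library and gate and divided by the gate's UMIs (CPM). A gene was called at 2-fold or more with at least 50 UMIs in both libraries together, and a library at 0 was set to a floor of 3 UMIs. Intervals are exact binomial (Clopper-Pearson) ones at 95%, for log2 ratios conditional on the sum of both counts. They were tested on Poisson counts simulated from the gate means, which hold no variation between cells or mice, so the test covers counting error only. Described one by one are fibrillar, type IV and FACIT genes with at least 200 UMIs in either main gate and other collagens with at least 500. The members and lists were chosen with earlier results of these data known. Alternatives covered gates, thinning, cell filters, scaling (TMM from edgeR 4.0.16 with R 4.3.3, and median of ratios) and thresholds. Other work used Python 3.11.15, numpy 2.4.6, scipy 1.17.1, pandas 2.3.3 and matplotlib 3.10.9.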

Additional observations from a re-analysis of the deposited data

Results flagged for a closer look

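Col18a1 in the fibroblast gate went in opposite directions with AngII, with a log2 ratio of 0.70 in WT and -1.14 in KO, each with an interval that leaves out 0. Col14a1 did so too, at 0.31 in WT and -0.37 in KO. The KO ratio of Col18a1 was -0.335 under stricter gates. It was -0.338 when only fibroblasts with under 1% of Acta2 and Tagln UMIs were kept. The difference between the genotypes was not tested for either gene, since there is 1 library per group.

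Cells that passed no gate enter none of the comparisons. Collagen made up 1.40% of their UMIs in WT AngII against 0.619% in WT saline, and 1.33% in KO AngII against 0.493% in KO saline.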

How the results depend on the processing

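No paired analysis was possible because each group has 1 library, so there was also no replicate to leave out. Over 15 alternatives, 0 of 928 values of the 26 genes described one by one changed direction where called, and 14 of 69 called ratios came under 2-fold in at least 1. The alternatives on thresholds left each ratio as it was. Those on scaling shifted all ratios of a comparison alike, by too little to turn a called one. Only the alternatives on gates, thinning and cells could have changed a direction. Of 224 counts, 164 stayed within 1.5 times the reported count. The log2 ratio of all collagen UMIs with AngII ranged from 1.19 to 1.38 (WT) and 0.69 to 1.32 (KO) in smooth muscle cells and from 1.61 to 1.93 and 2.06 to 2.31 in fibroblasts. TMM scaling shifted log2 ratios by 0.11 to 0.20 between AngII and saline in the main gates, and by -0.03 to 0.07 between genotypes. The cause of the changes below was not tested, and the counts below stand without the share of all genes under the same alternative.

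With cells thinned to 3000 UMIs and gated again, smooth muscle counts were 0 lower (WT AngII against saline), 5 higher (KO AngII against saline), 0 higher (KO against WT, saline) and 0 higher (KO against WT, AngII). Fibroblast counts were 1 lower in WT and 1 lower in KO with AngII, 1 higher and 0 lower between genotypes with saline, and 0 higher and 1 lower with AngII. With gates set before thinning, chosen after seeing the data, smooth muscle counts were 0 lower in WT, and 1 higher and 0 lower between genotypes with AngII. The fibroblast counts were 1 lower in WT, 1 lower in KO, 1 higher and 0 lower between genotypes with saline, and 0 higher and 1 lower with AngII.

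With TMM or median-of-ratios scaling, 1 gene was lower in WT fibroblasts, 3 in KO fibroblasts and 2 in KO saline against WT saline fibroblasts. With equal weight for every cell these were 1, 3 and 0, with 0 higher in KO AngII against WT AngII fibroblasts and 2 higher in KO saline against WT saline smooth muscle cells. Without the deepest 5% of cells, 1 gene was lower in WT fibroblasts, 0 lower in KO saline against WT saline and 0 higher in KO AngII against WT AngII. With stricter gates, 0 were higher in KO saline smooth muscle cells and fibroblasts against WT, 2 lower in those fibroblasts, 3 lower in KO fibroblasts with AngII and 0 higher in KO AngII against WT AngII fibroblasts. Without cells that passed more than 1 gate, 0 were higher in KO saline smooth muscle cells.

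With at least 20 UMIs, 2 were lower in WT and 2 in KO smooth muscle cells with AngII and 2 higher in KO saline against WT saline. With at least 200 UMIs, smooth muscle counts were 0 lower in WT, 0 higher in KO saline against WT saline, and 1 higher and 0 lower in KO AngII against WT AngII. In fibroblasts they were 3 lower in KO with AngII, 1 higher with saline and 0 higher with AngII between genotypes. With a fold of 1.5, smooth muscle counts were 3 lower in KO with AngII, 5 higher with saline and 4 higher with AngII between genotypes, and fibroblast counts were 5 lower with saline and 4 higher and 7 lower with AngII. Keeping smooth muscle cells with Dcn and Lum under 10, chosen after seeing the data, gave 2 lower in KO with AngII, 0 higher with saline and 1 higher with AngII between genotypes. Keeping fibroblasts with Acta2 and Tagln under 1%, also chosen then, gave 1 higher and 2 lower in KO saline against WT saline.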
